A study of Mus musculus with 4 samples.

Results

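The genes described here were Srebf1 and 9 genes of fatty acid synthesis, Fasn, Acaca, Acacb, Acly, Acss2, Scd1, Elovl6, Me1 and Thrsp. They were chosen by symbol, as every gene spot of the arrays that carried one of these 10 names, out of 31829 gene names on the arrays. The 10 genes had 18 probes among 39429. All 10 genes were measured, through 17 of the 18 probes, and the remaining Acaca probe was not well above background in any liver.

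Gene expression was compared between livers of fasted and re-fed mice to find which transcripts respond to fasting. Fasted mice had been without food for 24 h, and re-fed mice went through the same 24 h without food and then had access to it for 2 h. All were male C57BL/6J mice of 8 to 12 weeks with no transgene or drug, and each of the 8 livers was used on its own. On each of 4 two-colour arrays, RNA of 1 fasted and 1 re-fed liver, paired at random, carried opposite dyes and bound the same spots, so that an array gave 1 ratio per probe. The fasted liver carried Cy5 on arrays 1 and 2 and Cy3 on arrays 3 and 4. Every ratio below is the log2 of fasted over re-fed liver, so that a negative value is a lower level after fasting, and an array is 1 replicate (n = 4). No group of mice fed without a fast was measured here. Lower and higher are therefore relative to mice that had eaten for 2 h after a fast.

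The liver turns surplus carbohydrate into fat when food is plentiful. Citrate leaves the mitochondria and is split to acetyl-CoA by ATP citrate lyase (Acly), acetyl-CoA carboxylase (Acaca, Acacb) makes malonyl-CoA, and fatty acid synthase (Fasn) builds palmitate from it with NADPH that malic enzyme (Me1) helps to supply. Elovl6 lengthens palmitate and Scd1 introduces a double bond. Srebf1 encodes SREBP-1, a membrane-bound transcription factor that insulin induces and that activates most of these genes, while the proteins encoded by Insig1 and Insig2 hold it in the endoplasmic reticulum together with its escort Scap.

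The calls on single genes rested on 60-base probes, and the first 30 bases of those the results turn on are shown here with their positions in the mm9 build, which the scanner files use. The Acaca probes are shown as a pair because they share 55 bases in a row, of which the part inside these stretches is in capitals, and so are not separate measurements of that gene.

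Srebf1 (chr11:60012694-60012723, minus strand): ggtcggcatccacaggccgcacacttccaa
Thrsp (chr7:104561679-104561708, minus strand): aaagcagggatgctgtatctacctcacacg
Fasn (chr11:120667696-120667725, minus strand): attggtagggtacaaaggtgttcagaggat
Elovl6 (chr3:129341248-129341277, plus strand): cctaggccctaaacccatattcagagggaa
Acacb (chr5:114700702-114700731, plus strand): cctgaccacttgggtgcgctgaagaggctg
Acaca, brighter probe (chr11:84215094-84215123, plus strand): CTTCAGTCCAATGCACTCTTCTCACGTTTT
Acaca, second probe (chr11:84215093-84215122, plus strand): gCTTCAGTCCAATGCACTCTTCTCACGTTT

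Within its transcript the Srebf1 probe began at base 4166, far from the start. The transcripts that encode SREBP-1a and SREBP-1c differ at their first exon, so this probe did not tell them apart. 4 of the 10 genes, Srebf1, Fasn, Acaca and Acly, lie on chromosome 11.

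After fasting, Srebf1 and Thrsp were lower than in re-fed liver and Acacb was higher. Counting each gene by its brightest probe, 2 of the 10 genes were called lower and 1 was called higher at both limits, a limma adjusted p under 0.10 and 1.5-fold. Of all 16085 genes measured this way, 2.13% were called lower and 1.82% higher. Fasn and Elovl6 also passed the test on the adjusted p, but their changes stayed under 1.5-fold. On the adjusted p alone, 4 of the 10 genes were lower, against 6.28% of all genes, and 1 was higher, against 4.96%. The mean ratio was below 0 for 7 of the 10 genes, against 49.2% of all genes, and the ratio was below 0 on all 4 arrays for 4 of them, against 15.7%. The median ratio of the 10 genes was -0.26, and that of all genes was 0.0033.

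**Figure D1:**
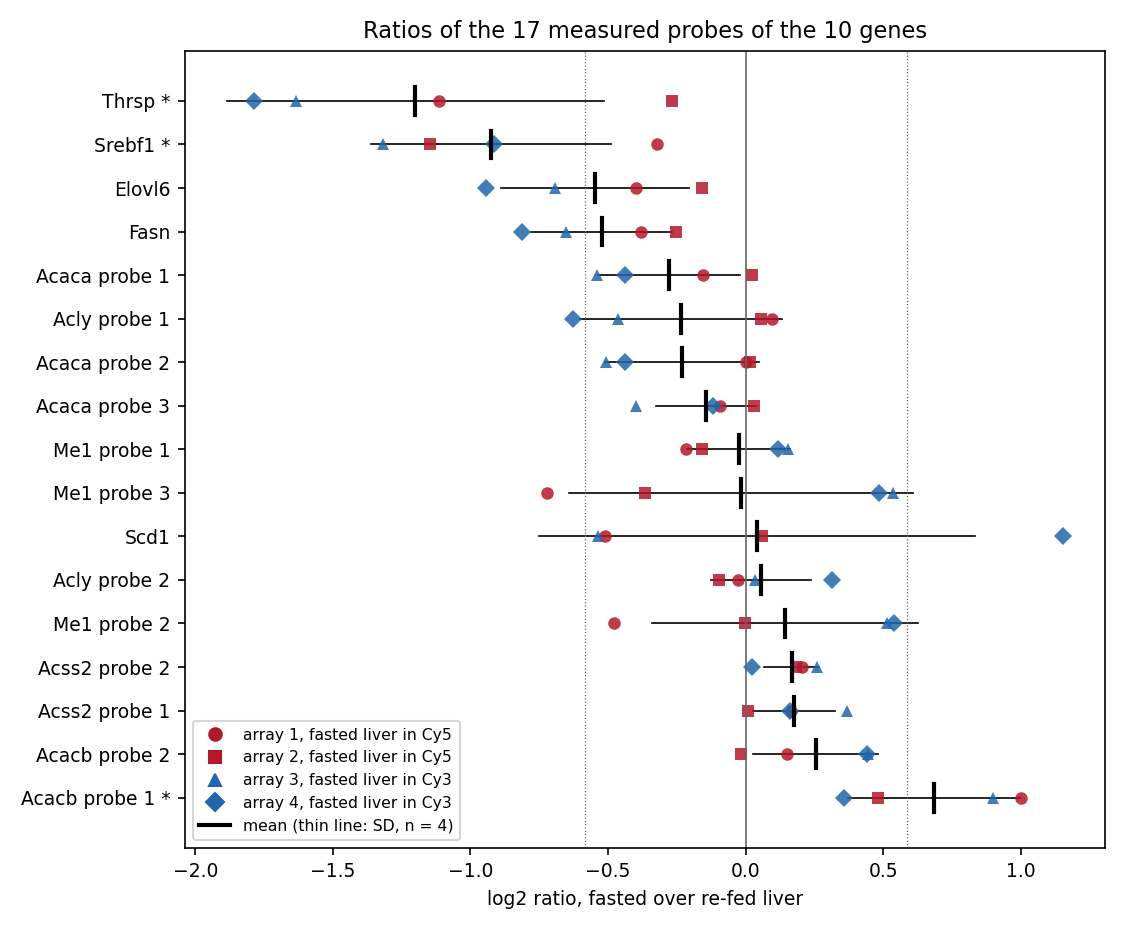
Log2 ratio of fasted over re-fed liver for the 17 measured probes of the 10 genes, ordered by mean. Each symbol is 1 array, coloured by the dye of the fasted liver, vertical bars are means, thin lines are 1 SD (n = 4), dotted lines mark a change of 1.5-fold, an asterisk marks a probe called by limma, and probes of a gene are numbered from the brightest. The ratios of Srebf1, Thrsp, Fasn and Elovl6 lie below 0 on all 4 arrays, and those of the brightest Acacb probe lie above 0 on all 4.

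The regulator Srebf1 had ratios of -0.32, -1.15, -1.32 and -0.91 on arrays 1 to 4. It was lower in the fasted liver on all 4 arrays, and the fall on array 1 was the smallest. Its mean ratio was -0.93 ± 0.44 (SD, n = 4), a 1.90-fold lower level, with a 95% confidence interval of -1.32 to -0.53 and a limma adjusted p of 0.0313. The normalised log2 intensity of Srebf1 was 7.08, 7.53, 7.62 and 7.82 in the fasted livers and 7.41, 8.67, 8.94 and 8.74 in the re-fed livers. The re-fed liver on array 1 lay inside the range of the fasted livers, so the groups overlapped, and the other 3 re-fed livers were above every fasted liver. The call was lost without array 2 (adjusted p = 0.118) and without array 3 (adjusted p = 0.114). It was also lost with the channels as separate livers (adjusted p = 0.126) and with the background model fitted on all spots, where the mean was -0.40 (adjusted p = 0.559).

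Thrsp, whose product Spot 14 promotes lipogenesis, had the largest fall of the 10 genes. Its ratios were -1.11, -0.27, -1.63 and -1.79 on arrays 1 to 4. The mean was -1.20 ± 0.68 (SD, n = 4), a 2.30-fold lower level with a confidence interval of -1.79 to -0.61 and a limma adjusted p of 0.0447. The falls were unequal, since array 2 showed a much smaller one than the others. The normalised log2 intensity was 10.02, 11.03, 10.23 and 9.80 in the fasted livers and 11.13, 11.29, 11.86 and 11.59 in the re-fed livers. Every re-fed liver was above every fasted liver, as was so for 7.83% of all genes. Thrsp was the only one of the 10 genes whose fasted livers were separate and lower. Its call was lost without array 3 (adjusted p = 0.161) and without array 4 (adjusted p = 0.132), and with the background model fitted on all spots, where the mean was -0.69 (adjusted p = 0.488).

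Fasn, the multifunctional enzyme that assembles palmitate, had ratios of -0.38, -0.25, -0.65 and -0.81. It was lower in fasted liver on all 4 arrays, with a mean of -0.52 ± 0.25 (SD, n = 4), a 1.44-fold lower level. The limma adjusted p was 0.0478 and the confidence interval was -0.79 to -0.26, so the change passed the test but not the limit of 1.5-fold. That pass was lost without array 3 (limma adjusted p = 0.187) and without array 4 (adjusted p = 0.143). It was also lost with the background model fitted on all spots (adjusted p = 0.559). The normalised log2 intensity ran from 6.91 to 7.43 in fasted livers and from 7.29 to 7.95 in re-fed livers. Only the re-fed liver on array 1 fell inside the fasted range. Fasn was a dim probe, and its mean ratio moved with the background step, from -0.17 when the background model was fitted on all spots to -0.90 with the scanner software's processed signals.

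Elovl6, the elongase that turns palmitate into stearate, had ratios of -0.40, -0.16, -0.69 and -0.94. Its mean of -0.55 ± 0.34 (SD, n = 4) was a 1.46-fold lower level, with an interval of -0.87 to -0.22 and a limma adjusted p of 0.0712. The pass at 0.10 was lost without array 1, 3 or 4 (limma adjusted p = 0.112, 0.239 and 0.188). It was also lost with channels as separate livers (0.127), with no filter on dim probes (0.104) and with the background model fitted on all spots (0.559). The levels ran from 8.93 to 9.37 in fasted livers and from 9.33 to 10.31 in re-fed livers, and overlapped by the re-fed liver on array 1. The order of the 4 arrays was the same as for Fasn, and the difference between Elovl6 and Fasn within arrays was -0.02 ± 0.09 (SD, n = 4).

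Of the 2 acetyl-CoA carboxylases, Acacb was called higher and Acaca did not pass the test. Acacb encodes the isoform at the outer mitochondrial membrane, whose malonyl-CoA restrains fatty acid import into mitochondria, and Acaca encodes the cytosolic isoform that feeds fatty acid synthesis. The brightest Acacb probe had ratios of 0.999, 0.48, 0.90 and 0.36, a mean of 0.68 ± 0.31 (SD, n = 4) or a 1.61-fold higher level in fasted liver, with an interval of 0.38 to 0.99 and a limma adjusted p of 0.0346. The normalised log2 intensity of that probe was 10.60, 9.96, 10.22 and 9.87 in fasted livers and 9.60, 9.48, 9.32 and 9.51 in re-fed livers. Every fasted liver was above every re-fed liver, as was so for 6.09% of all genes. A second, dim Acacb probe had a mean of 0.25 ± 0.23 (SD, n = 4) with an adjusted p of 0.221 and was below 0 on array 2. The call on Acacb was lost without array 1, where the mean of 0.58 fell under the fold limit, without array 3 (adjusted p = 0.141), and when the mean of both probes, 0.47, was taken. It was also lost with median centring, at a mean of 0.56, and with the background model fitted on all spots, at a mean of 0.42 (adjusted p = 0.559).

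The brightest Acaca probe had ratios of -0.16, 0.02, -0.54 and -0.44, with a mean of -0.28 ± 0.26 (SD, n = 4) and a limma adjusted p of 0.215. The overlapping second probe gave 0.0022, 0.02, -0.51 and -0.44, and a dim probe near the start of the transcript gave a mean of -0.14 ± 0.18 (SD, n = 4). No Acaca probe passed the test. Within arrays, the difference between Acacb and Acaca was 1.16, 0.46, 1.44 and 0.80, a mean of 0.96 ± 0.43 (SD, n = 4). It was positive on 4 of 4 arrays, and the exact two-sided sign-flip test gave p = 0.125, the smallest that 4 arrays allow.

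**Figure D2:**
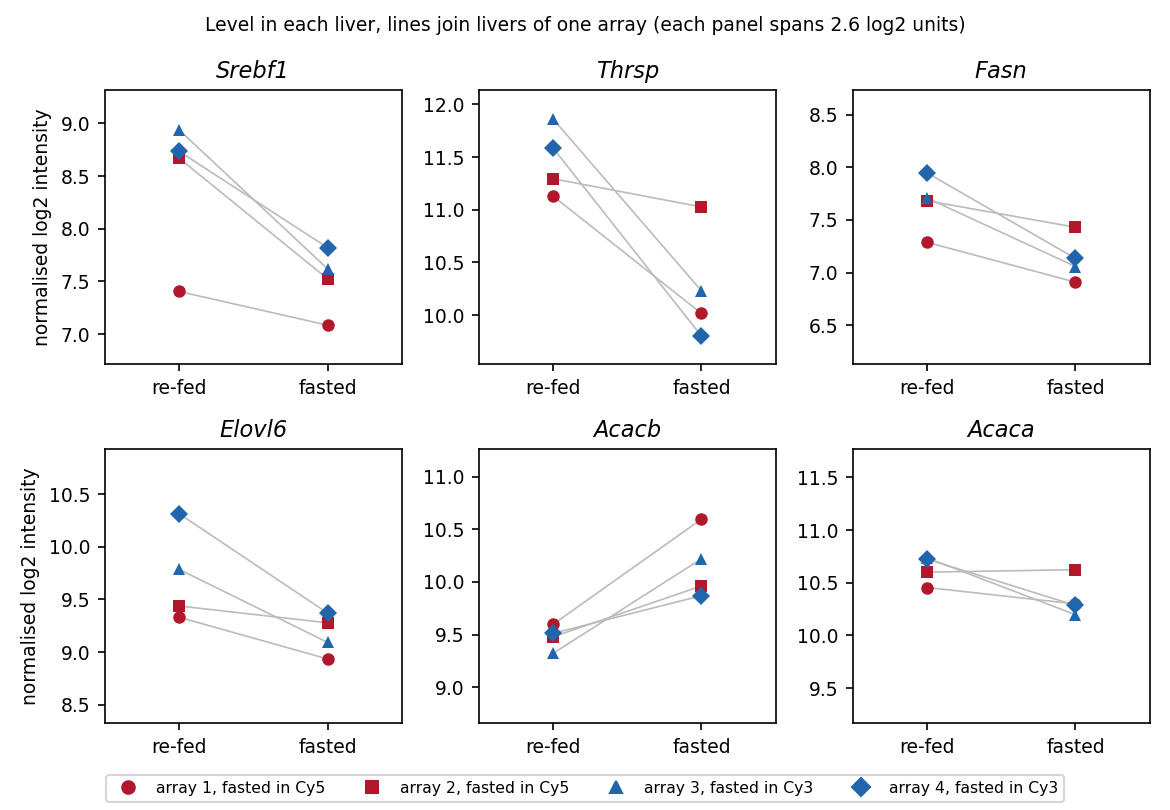
Normalised log2 intensity of the brightest probe of 6 genes in each liver, with lines joining the re-fed and the fasted liver of an array and every panel spanning the same number of log2 units. Thrsp levels of fasted livers all lie below, and Acacb levels all above, those of re-fed livers, while Srebf1, Fasn and Elovl6 overlap through the re-fed liver on array 1. Intensities of different probes are not comparable as amounts of RNA.

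Acly and Acss2 supply acetyl-CoA, from citrate and from acetate. The brightest Acly probe had ratios of 0.10, 0.06, -0.46 and -0.63, a mean of -0.23 ± 0.37 (SD, n = 4) with a limma adjusted p of 0.411, and the sign followed the dye of the fasted liver. A dim Acly probe had a mean of 0.06 ± 0.18 (SD, n = 4). Acss2 was above 0 on all 4 arrays with both of its probes, at means of 0.18 ± 0.15 and 0.17 ± 0.10 (SD, n = 4), and adjusted p-values of 0.295 and 0.269. Its confidence intervals, -0.03 to 0.38 and -0.01 to 0.35, did not reach 1.5-fold, which is 0.58 on this scale.

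Me1 gave means of -0.03, 0.14 and -0.02 with its 3 probes. Each of the probes was below 0 on arrays 1 and 2 and above 0 on arrays 3 and 4, so the ratio changed sign with the dye orientation. The third probe showed this most, with -0.72 and -0.37 against 0.54 and 0.49. Scd1, the desaturase that makes oleate, was the most variable of the 10 genes, with ratios of -0.51, 0.06, -0.54 and 1.15. Its mean of 0.04 ± 0.79 (SD, n = 4) had an interval of -0.64 to 0.72, which allows a change of more than 1.5-fold either way, and it was -0.33 without array 4.

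Because a dye bias does not turn with the swap of the dyes, it was fitted as a second term, named the dye effect here. Each orientation held other livers. A dye bias therefore cannot be told apart from a difference between livers of arrays 1 and 2 and of arrays 3 and 4. Dye effects at an adjusted p under 0.10 were found for 3 of the 10 genes by their brightest probe, Thrsp (0.0824), Elovl6 (0.0883) and Acly (0.0488), against 15.4% of all genes. With the dye term the same 2 genes were called lower and the same gene higher, where 2.29% and 2.08% of all genes were called. The limma adjusted p was then 0.0111 for Srebf1, 0.0046 for Thrsp, 0.0055 for Fasn, 0.0076 for Elovl6 and 0.0158 for Acacb. Acaca (0.033) and Acly (0.0492) also passed the test with the dye term, at mean ratios of -0.28 and -0.23 and so under 1.5-fold. For all 4 genes that passed the adjusted p as lower, the falls were larger on average on the arrays with the fasted liver in Cy3. Thrsp averaged -0.69 on arrays 1 and 2 and -1.71 on arrays 3 and 4, and Srebf1 averaged -0.73 and -1.12.

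**Figure D3:**
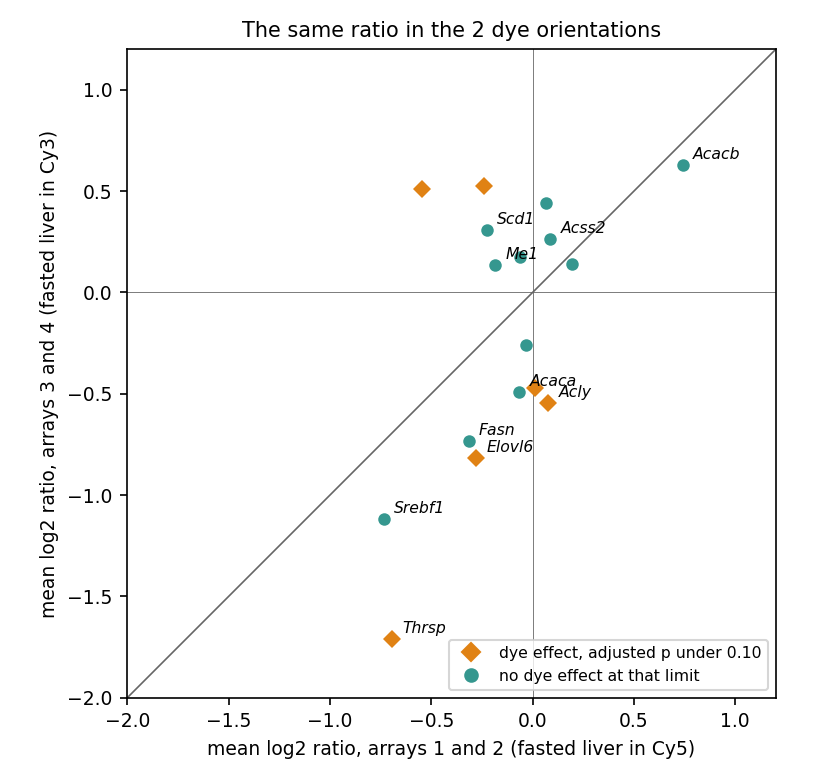
Mean log2 ratio of fasted over re-fed liver on the arrays with the fasted liver in Cy5 (horizontal axis) against the arrays with it in Cy3 (vertical axis), for the 17 measured probes, with the brightest probe of each gene named. Points on the diagonal have the same ratio in both orientations, and diamonds mark a dye effect at an adjusted p under 0.10. Acacb lies close to the diagonal at 0.74 and 0.63, while Thrsp, Elovl6 and Acly lie below it.

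Among other genes of the pathway, 61 were listed in 5 groups and 54 were measured. 5 were called lower, among them Insig1, Mlx, Mid1ip1 and Aacs, and 1 higher, Insig2, against the same 2.13% and 1.82% of all genes, and 32 of the 54 had a mean ratio below 0.

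Of the 10 regulators measured, 2 were called lower and 1 higher, and the list's median was 0.018. The Insig genes moved in opposite directions. Insig1, which SREBP itself induces, had ratios of -0.56, -1.03, -0.96 and -0.32, with a mean of -0.72 ± 0.34 (SD, n = 4) and a limma adjusted p of 0.0354. Its levels overlapped between the groups, at 7.52 to 8.53 in fasted and 8.08 to 9.02 in re-fed livers. Insig2, whose liver transcript is known to be repressed by insulin, had ratios of 1.21, 1.21, 1.40 and 0.93, with a mean of 1.19 ± 0.19 (SD, n = 4). Its levels were higher in every fasted liver than in any re-fed liver, and a second probe gave 1.39 ± 0.28 (SD, n = 4). Mlx, the partner of the carbohydrate-responsive factor encoded by Mlxipl, had ratios of -0.35, -0.46, -0.78 and -1.03 and a mean of -0.66 ± 0.31 (SD, n = 4) with an adjusted p of 0.0376. Scap had ratios of 0.30 to 0.48 and a mean of 0.37 ± 0.08 (SD, n = 4), which passed the test (limma adjusted p = 0.0402) but not 1.5-fold. Srebf2, the sterol-responsive relative of Srebf1, had a mean of -0.07, Mlxipl one of -0.25 and Nr1h3, the liver X receptor alpha, one of -0.16, none of which passed the test. Usf2, which binds E-boxes, had ratios of 0.84, 0.68, -0.32 and -0.15 with its brightest probe and -0.54, 0.24, 1.12 and 1.19 with its second, so the probes moved opposite ways with the dye orientation. Both had a dye effect, at adjusted p-values of 0.0252 and 0.0481.

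Of the 11 measured genes that act on acetyl-CoA carboxylase or the synthase, 1 was called lower, and the list's median was 0.05. This was Mid1ip1, a relative of Thrsp whose product promotes the polymerisation of acetyl-CoA carboxylase. Its ratios were -1.01, -1.83, -1.88 and -2.10, a mean of -1.71 ± 0.48 (SD, n = 4) or a 3.26-fold lower level, with a limma adjusted p of 0.00842. Its level was lower in every fasted liver than in any re-fed liver. By their brightest probes the other members of that list had means between -0.20 (Prkab2) and 0.23 (Hlcs), and none of them was called. The probes of Aasdhppt differed, at -0.05 for the brightest and -0.41 for the second, which passed the test (limma adjusted p = 0.0829) but not 1.5-fold.

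Of the 12 measured genes of acetyl-CoA and NADPH supply, 1 was called lower, 11 had a mean below 0 and the median was -0.10. The largest uncalled ratios were those of Cs, Tkt, Me2 and Pklr, between -0.21 and -0.14. Of the 13 elongases and desaturases measured, 0 were called by limma without the dye term, the list's median was -0.0056, and 7 were below 0. At an unadjusted p under 0.05, 1 was lower and 2 were higher, against 11.7% and 10.3% of all genes, and the rebuilt SAM test called 0. The elongase Elovl2 had a mean of 0.44 and the desaturase Fads2 one of 0.42, neither called. Elovl1 was lower with both of its probes, each at a mean of -0.46 and at limma adjusted p-values of 0.0343 and 0.021, under 1.5-fold. Elovl3, an elongase of very long saturated chains, had ratios of 0.15, -0.32, 2.64 and 2.04, high on arrays 3 and 4 alone. Its levels were 10.28, 10.92, 12.64 and 13.31 in the fasted livers of arrays 1 to 4. In the re-fed livers they were 10.13, 11.24, 10.01 and 11.27. The dye term of Elovl3 had a limma adjusted p of 0.00987, and whether the dye or the livers set these arrays apart was not tested. With the dye term Elovl3 was called higher, at a mean of 1.13 and a limma adjusted p of 0.00416. Of the 8 genes of activation and glycerolipid use that were measured, 1 was called lower. Aacs, which activates acetoacetate for lipid synthesis, had ratios of -1.62, -1.60, -2.26 and -1.13, a mean of -1.65 ± 0.46 (SD, n = 4) or a 3.14-fold lower level. The brightest probe of Acsl1, a long-chain acyl-CoA synthetase, had a mean of 0.48 ± 0.05 (SD, n = 4), which passed the test (limma adjusted p = 0.0183) but not 1.5-fold. Its second probe had a mean of 0.46 ± 0.49 (SD, n = 4) with ratios of 0.015, 0.060, 0.82 and 0.95, did not pass (limma adjusted p = 0.209) and had a dye effect at an adjusted p of 0.0296.

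**Figure D4:**
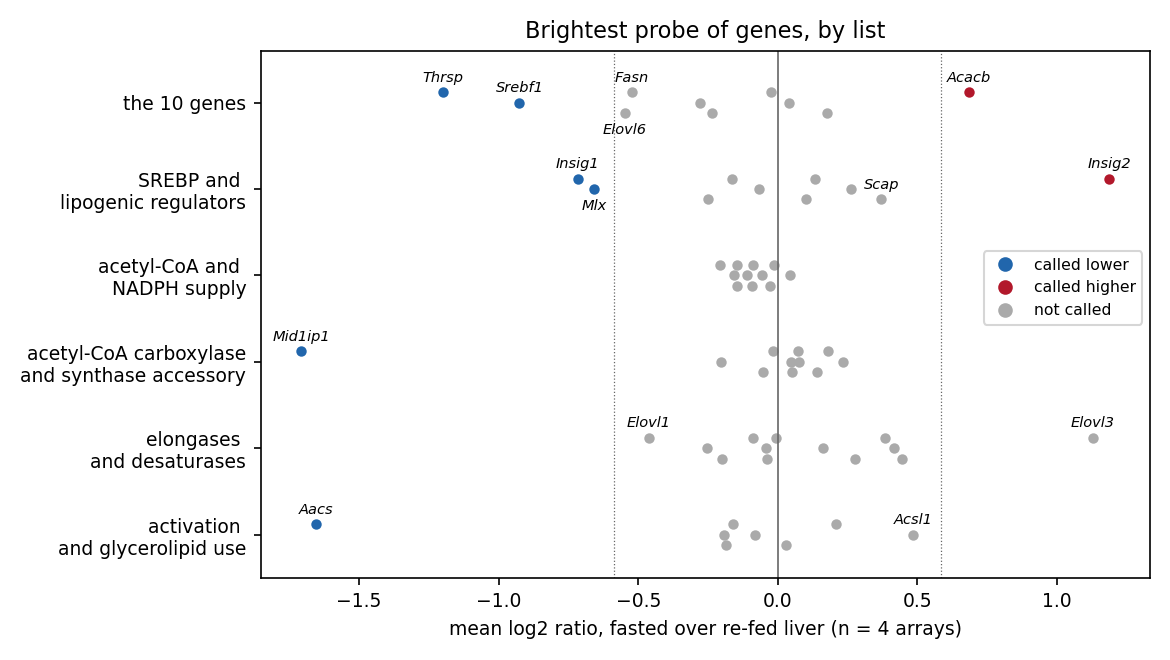
Mean log2 ratio of fasted over re-fed liver (n = 4 arrays) for the brightest probe of measured genes among the 10 genes and the 5 pathway lists. Each point is 1 gene, blue points were called lower and red points higher at a limma adjusted p under 0.10 and 1.5-fold (dotted lines), and names mark genes described in the text. Each of the lists has most of its genes between the dotted lines, with Mid1ip1 and Aacs at -1.71 and -1.65.

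Ratios of genes were compared within arrays for 6 pairs in all, of which only Acacb with Acaca had been planned. Insig2 minus Insig1 was 1.90 ± 0.51 (SD, n = 4), positive on all 4 arrays, and Thrsp minus Fasn was -0.68 ± 0.45, negative on all 4. Both reached the exact p of 0.125, the smallest possible, and 0.25 after adjustment over the 6 pairs. Srebf1 minus Fasn was -0.40 ± 0.45 (exact p = 0.25), Elovl6 minus Fasn had an exact p of 0.625 and Mid1ip1 minus Thrsp was -0.51 ± 0.73 (exact p = 0.25). With 4 arrays no difference could fall below 0.125, so these are descriptions.

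Igtp, Lss, Ngdn and Gfpt1 were among the 5 genes whose 4 ratios lay nearest to those of Srebf1, by Euclidean distance over the 4 arrays. Their distances were 0.38 to 0.43, and their mean ratios ran from -1.05 (Gfpt1) to -0.78 (Igtp). With 4 arrays such a likeness is a description.

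Windows before the start of each gene were read from RefSeq's promoter table of the GRCm38.p6 build, which held 12 windows for 9 of the 10 genes and none for Scd1. Matches were sought on both strands in the 250 bases before the start. The sterol element TCACNCCAC was present in 1.05% of all 32851 windows and in none of the 12. The E-box CACGTG was in 6.02% of all windows and in none of the 12. The NF-Y box CCAAT was in 33.8% of all windows and in 7 of the 12, those of Srebf1, Fasn, Acacb, Acss2, Thrsp and Me1. The Sp1 box GGGCGG was in 32.7% of all windows and in 5 of the 12. The last 120 bases before the start are shown for Thrsp, which was called lower, Fasn, which passed the adjusted p alone as lower, and Acacb, which was called higher, with CCAAT on either strand in capitals.

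Fasn (chr11:120824548-120824667, minus strand): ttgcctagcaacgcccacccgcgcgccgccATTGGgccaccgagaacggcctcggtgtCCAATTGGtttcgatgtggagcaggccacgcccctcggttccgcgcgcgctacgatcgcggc
Thrsp (chr7:97417551-97417670, minus strand): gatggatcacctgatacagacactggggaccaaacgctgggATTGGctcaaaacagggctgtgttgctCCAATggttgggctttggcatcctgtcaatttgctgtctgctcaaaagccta
Acacb (chr5:114165398-114165517, plus strand): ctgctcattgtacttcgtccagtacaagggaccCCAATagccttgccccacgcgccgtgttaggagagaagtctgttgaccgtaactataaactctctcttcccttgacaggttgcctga

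The window of Fasn held 3 matches, 2 of them overlapping, that of Thrsp 2 and that of Acacb 1. A match is a description of these letters. Acaca, Acly and Elovl6 held no CCAAT in their windows, while Acss2 and Me1, which did not pass the test, did.

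The array data around these values were as follows. Of 39429 probes, 19721 were kept, 410 (2.08%) were called lower and 335 (1.70%) higher, so that 45.0% of the called probes were higher, or 26.6% when ratios were centred on the median in place of loess. The median brightness of gene spots was 40 to 75 in red and 44 to 96 in green, over median backgrounds of 25 to 35 and 20 to 33. All 9 probes of hepatocyte markers were above background in every liver. The re-fed liver on array 3 also carried pancreatic acinar transcripts, with all 11 probes of 10 acinar genes at ratios of -5.60 to -2.08 there and between -0.39 and 0.47 on the other arrays. The mean log2 intensity of those probes was 10.44 in that liver, 6.36 to 6.47 in the other re-fed livers, 6.87 in the fasted liver of the same array and 6.36 to 6.44 in the other fasted livers. That fasted liver had 7 of the 11 probes above background, against 3 or 4 in the other fasted livers, and its Cpa1 level was 8.53 against 5.89 to 6.17 in them. Of 8 probes of adipose markers, 3 were above background in 7 of the 8 livers and 6 in the re-fed liver on array 3. Adipoq stood at 6.42 in that re-fed liver, against 5.98 to 6.09 in the other livers. The 3 probes above background in every liver were those of Cfd, Fabp4 and Car3, at mean log2 intensities of 7.10, 9.31 and 13.69. The mean log2 intensity of the adipose probes was 7.47 to 7.87 in re-fed livers, highest on array 3, and 7.41 to 7.76 in fasted livers. The 3 measured adipose markers had mean ratios of -0.30, 0.28, -0.81 and 0.39 on arrays 1 to 4. Lep was not well above background in any liver. Blood markers were higher in the fasted liver on arrays 1 and 3, at list means of 1.73 and 1.99, against -0.27 and 0.20 on the others. No immune, endothelial or stellate marker was called, and the medians of those lists were 0.08 and 0.07. The endothelial marker Stab2 was higher in every fasted liver than in any re-fed liver, at a mean of 0.35 and a limma adjusted p of 0.0478, under 1.5-fold. Without array 3, limma called 0 of the 10 genes in either direction, while 4 were lower and 1 higher at an unadjusted p under 0.05, against 8.43% and 7.72% of all genes, and 256 probes of the whole array were called lower and 208 higher. The mean ratios were then -0.79 for Srebf1, -1.06 for Thrsp, -0.48 for Fasn, -0.50 for Elovl6 and 0.61 for Acacb, each with the sign it had on all 4 arrays. The part of the other tissues in these results was not tested. In whole liver, fewer cells of a type and less RNA per cell cannot be told apart.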

How the data were processed

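Total RNA of 4 fasted and 4 re-fed livers was measured on 4 two-colour arrays; 200 ng per liver had been amplified and labelled in a dye swap. The deposited scanner files give intensity per spot, as pixel medians, with local background and flags. Their headers name Feature Extraction 10.10.1.1, another version than the study's methods. A second table, of log2 ratios, was deposited by the authors after print tip loess in limma; the sources used here give no background step for it.

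The pixel medians entered limma 3.58.1, run in R 4.3.3. Spots with a local background over 3 times the array's median were left out, then normexp (offset 50), removal of control and flagged spots, loess within arrays and averaging of a probe's spots followed. A probe was kept where at least 1 group was well above background on all 4 arrays, counting a probe as such where 50% or more of its spots were. That spot rule was chosen after the data were seen, from versions that kept 19707 to 19740 probes, because it gave the number kept in earlier work on these files. No spot of the 10 genes was flagged, saturated or left out for its background.

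Ratios were tested with lmFit and eBayes, in two-sided tests whose p-values were adjusted by Benjamini-Hochberg across every kept probe, and called at an adjusted p under 0.10 and 1.5-fold. The study's methods name SAM, which was rebuilt with all 16 sign flips as an alternative. A gene was counted by its brightest probe, named as in the files. Levels per liver are log2 intensities after Aquantile scaling between arrays. The code was tested on simulated data.

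The 10 genes, the lists, the tests and the limit on background were chosen with earlier results of these data known. Genes named beside the 10 were those of 5 pathway lists that were called or, per list, had up to 4 of the largest uncalled ratios, and the 5 nearest to Srebf1; Srebf2, Stab2, Cpa1 and the second probes were added after their values were seen, as were 5 of the 6 differences within arrays. 2 genes that these rules select are not reported here; 1 of them, in a pathway list, stays in the counts but is not drawn. Marker lists covered hepatocytes, adipose, pancreatic acinar, immune, blood, and endothelial and stellate cells. Replicate numbers name the arrays. The alternatives covered background, source of values, normalisation, filters, flags, dye, pairing, test, thresholds, choice of probe and each array left out.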

Additional observations from a re-analysis of the deposited data

Results flagged for a closer look

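Of 36 probes and list means scanned for an array far from the other 3, 3 were past Dixon's critical value for 4 arrays, and chance flags about 1 group in 20.

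The pancreatic acinar list had a gap of 0.974 of its range, with a mean of -3.93 on array 3 and between -0.06 and 0.04 on the others. The pathway list of activation and glycerolipid use had a gap of 0.891, with a mean of -0.30 on array 3 against -0.16 to -0.15 on the others. The hepatocyte list had a gap of 0.833, with a mean of 0.47 on array 2 against -0.02 to 0.06 on the others. None of the 17 probes of the 10 genes was past it; the nearest were a dim Acly probe at 0.679 and the second Acss2 probe at 0.676.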

How the results depend on the processing

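Across 21 alternatives, 2 of them added after the data were seen, Srebf1 kept its direction with means of -1.17 to -0.40 and was called in 17, Thrsp ran from -1.51 to -0.69 and was called in 18, and Acacb from 0.42 to 0.79 and was called in 16. Fasn was called in 6 and Elovl6 in 5.

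With normexp fitted on all spots, 15 probes were called lower and 5 higher, and limma and the rebuilt SAM called 0 of the 10 genes lower and 0 higher. At an unadjusted limma p under 0.05, 2 of the 10 genes were lower and 0 higher, against 3.31% and 2.70% of all genes. Of the 54 measured pathway genes, 0 were called lower and 1 higher, with 5 lower and 4 higher at that unadjusted p. Acacb minus Acaca was 0.53. Plain subtraction called 713 probes lower and 550 higher, and Agilent's processed signals 904 and 686. Those signals, the authors' deposited ratios and the test with no fold limit each called 4 of the 10 genes lower. The deposited ratios gave 526 probes lower and 433 higher. With no fold limit, 1208 probes were lower, 935 higher and 3 pathway genes higher. Median centring called 635 probes lower and 0 of the 10 genes higher, as did the mean of a gene's probes (0 higher). The dye term called 2 pathway genes higher, Insig2 and Elovl3. Treating channels as separate livers, with no replicate block for the array, called 410 probes lower and 341 higher. It called 1 of the 10 genes lower, since Srebf1 had a limma adjusted p of 0.126. Arrays left out in turn gave 256 to 525 probes lower and 208 to 413 higher, 0 to 3 of the 10 genes lower and 0 to 1 higher, and 3 to 5 pathway genes lower and 1 to 2 higher; Acacb minus Acaca was 0.80 to 1.13.

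Me1 changed sign with processed signals (0.035), with the mean of its probes (0.034), and without array 1 or 2, with values of -0.085 to 0.038 as arrays were left out. Scd1 did with median centring (-0.11) and without array 4, with values of -0.33 to 0.23 as arrays were left out. The cause of these shifts was not tested. 4 arrays and dim signals (Srebf1, Fasn) limit what can be resolved.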
